A study of Homo sapiens with 6 samples.

Results

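The genes described are 9 enzyme genes of serine synthesis and one-carbon metabolism: PHGDH, PSAT1, PSPH, SHMT1, SHMT2, MTHFD1, MTHFD2, MTHFD1L and ALDH1L2. They were chosen by name, as the rows of the deposited count table that carry exactly these symbols, and all 9 were present among 60835 gene names. All 9 also passed the filter on low counts, which left 16744 genes for testing. RNA was sequenced from SW620 cells, a long-established line derived from a human colon cancer, in 6 libraries. The first 3 libraries were from cells labelled as a stable DNM1 knockdown (shDNM1, genotype given as DNM1 Knockdown, batch_B), and the other 3 were from cells with a control vector (shControl, genotype given as WT, batch_A). All 6 share the cell line and growth in high-glucose DMEM with serum. DNM1 encodes dynamin 1, a GTPase of vesicle scission, and the series title links dynamin 1 with the PI3K/Akt pathway. Because each batch holds libraries of 1 set, batch and vector cannot be told apart in any difference given here. The labels name no separate cultures, no clone or pool and no hairpin sequence, so the p-values rest on library-to-library spread alone, and that spread may be technical.

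Serine is made in the cytosol from the glycolytic intermediate 3-phosphoglycerate, which PHGDH oxidises, PSAT1 transaminates and PSPH dephosphorylates. Serine hydroxymethyltransferases then split serine into glycine and a carbon unit that is carried by tetrahydrofolate, SHMT1 in the cytosol and SHMT2 in the mitochondrion. The carbon unit is oxidised or reduced on its carrier by MTHFD1 in the cytosol and by MTHFD2 in the mitochondrion. MTHFD1L releases it in the mitochondrion as formate, which then leaves, while ALDH1L2 oxidises mitochondrial 10-formyltetrahydrofolate to carbon dioxide. The products feed purine, thymidylate and methionine synthesis, and in colon cancer cells the pathway is known for its tie to proliferation.

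Each library held between 12844534 and 13537519 counts. Levels are given as CPM, counts scaled to 1000000 per library with TMM factors, and on the log2 scale libraries correlated at 0.987 or more within a set and at 0.977 or less across sets (Pearson, across genes). DNM1 had 126, 97.8 and 125.5 CPM in the shDNM1 libraries, against 127, 127 and 133 CPM in the shControl libraries. All shDNM1 values lay below the shControl values, some by a narrow margin. The difference did not pass the edgeR quasi-likelihood test with Benjamini-Hochberg adjustment used throughout (log2 fold change -0.15, SE 0.083, adjusted p = 0.189). It passed without shDNM1 replicate 1 (log2 fold change -0.20, adjusted p = 0.0399). Without shDNM1 replicate 2, the library with the lowest DNM1 level, little of the difference was left (log2 fold change -0.0373, adjusted p = 0.718). The target mRNA was thus not clearly lower, and the directions given below are between the libraries labelled shDNM1 and shControl. Of 10 colon epithelial markers, 9 reached 1 CPM in a library and CDX1 had no count, and their summed level was 9601 to 10880 CPM in the libraries labelled shDNM1 and 8274 to 9047 CPM in the shControl libraries. Summed markers of leukocytes were at 1.37 to 2.23 CPM in the libraries labelled shDNM1 and 3.39 to 4.45 CPM in shControl (5 genes, CD3E at 0). Those of fibroblasts were at 37.6 to 52.4 CPM in the libraries labelled shDNM1 and 30.0 to 37.3 CPM in shControl (5 genes, COL3A1 at 0). Those of endothelium were at 17.9 to 22.8 CPM in the libraries labelled shDNM1 and 16.9 to 20.2 CPM in shControl (4 genes, KDR at 0). The part of these shifts in the results below was not tested.

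The genes that fell are shown first by their promoters, because they are the members that differ between the sets. Each window is RefSeq sequence on GRCh38.p14, 250 bases before to 50 bases from the annotated start, on the gene's strand. Windows were found for 6 of the 9 members, PHGDH, PSAT1, SHMT1, MTHFD1, MTHFD2 and MTHFD1L. Capitals mark the E-box CACGTG, bound by MYC and related factors, and the ATF4 composite element TGATGNAA, searched on both strands. The windows are chr1:119711684-119711983, plus strand, for PHGDH, chr17:18363501-18363800, minus strand, for SHMT1, chr14:64388103-64388402, plus strand, for MTHFD1, and chr6:150866236-150866535, plus strand, for MTHFD1L. MTHFD1L did not pass the test and is shown because its window held both motifs.
PHGDH: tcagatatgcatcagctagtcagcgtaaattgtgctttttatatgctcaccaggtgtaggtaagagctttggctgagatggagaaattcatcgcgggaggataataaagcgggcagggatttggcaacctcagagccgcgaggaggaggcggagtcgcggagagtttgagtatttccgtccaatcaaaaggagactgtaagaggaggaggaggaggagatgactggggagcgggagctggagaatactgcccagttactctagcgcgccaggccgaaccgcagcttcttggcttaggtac
SHMT1: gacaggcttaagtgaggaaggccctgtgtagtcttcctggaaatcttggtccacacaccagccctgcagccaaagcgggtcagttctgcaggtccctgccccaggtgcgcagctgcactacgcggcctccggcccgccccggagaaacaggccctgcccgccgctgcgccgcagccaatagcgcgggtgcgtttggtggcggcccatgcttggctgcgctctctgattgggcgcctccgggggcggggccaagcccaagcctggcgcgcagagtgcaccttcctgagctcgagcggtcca
MTHFD1: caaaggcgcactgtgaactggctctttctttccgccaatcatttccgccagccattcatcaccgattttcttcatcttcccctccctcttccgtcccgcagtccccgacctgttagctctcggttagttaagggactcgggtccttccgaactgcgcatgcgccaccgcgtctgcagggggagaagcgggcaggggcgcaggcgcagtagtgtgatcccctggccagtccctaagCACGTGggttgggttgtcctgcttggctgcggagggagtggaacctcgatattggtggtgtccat
MTHFD1L: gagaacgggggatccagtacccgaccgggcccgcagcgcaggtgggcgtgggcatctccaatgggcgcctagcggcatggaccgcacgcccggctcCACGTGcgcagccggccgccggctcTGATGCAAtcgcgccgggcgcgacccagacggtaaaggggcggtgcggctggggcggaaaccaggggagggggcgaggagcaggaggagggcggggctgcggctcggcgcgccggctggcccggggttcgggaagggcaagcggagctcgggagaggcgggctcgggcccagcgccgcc

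The MTHFD1 window held an E-box 15 bases before the start. In the printed MTHFD1L window, an E-box began 154 bases and an ATF4 element 129 bases before the start, and the same pair of matches lies in 2 further overlapping windows of that gene. Another MTHFD1L window, chr6:151006758-151007057, held no match to these motifs. Neither motif was in the windows of PHGDH, SHMT1, PSAT1 or MTHFD2. Among all 35116 RefSeq windows of this length, 7.26% held the E-box and 3.62% the ATF4 element. The antioxidant response element core TGACNNNGC was also searched and is not marked. Among the member windows it matched in MTHFD2 alone, where 13.3% of all windows held it. A match is a description of the letters and not a bound site. The windows of PHGDH, MTHFD1, MTHFD2 and MTHFD1L lie inside the gene spans deposited with the counts (GRCh38).

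PHGDH, SHMT1 and MTHFD1 fell in the libraries labelled shDNM1, and the other 6 genes did not pass the test. Thus 3 of 9 were called lower and 0 higher, where 16.2% of all tested genes were called lower and 15.6% higher, 31.9% in either direction (edgeR quasi-likelihood test, Benjamini-Hochberg adjusted p under 0.05). At an unadjusted p under 0.05 there were also 3 of 9, where 41.5% of all tested genes passed. DESeq2 called 0 members higher and 3 lower, where it called 14.8% of all genes higher and 13.3% lower. The median log2 fold change was -0.10 over the 9 genes and -0.01 over all genes tested. The sets did not overlap for 4 of the 9 genes (PHGDH, PSPH, SHMT1 and MTHFD1, all below), where 44.3% of all tested genes did not overlap, 21.2% with shDNM1 above and 23.1% with shDNM1 below. Over all genes, 2617 were called higher and 2720 lower, while limma on log2(TPM + 1) called 1801 higher and 2846 lower. Library size in place of TMM gave 2255 higher and 3103 lower. In a bulk sample, fewer cells with a transcript and less of it per cell cannot be told apart.

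**Figure D1:**
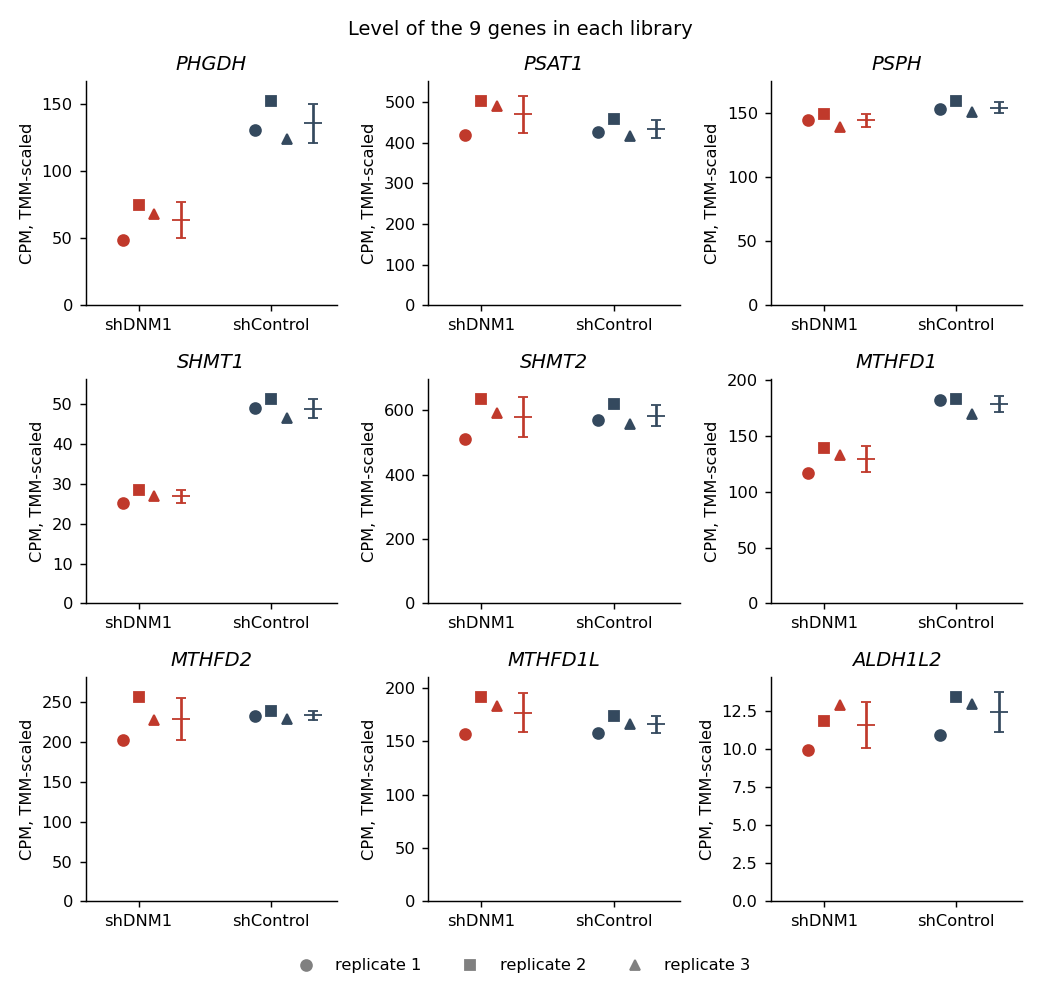
CPM (TMM-scaled, vertical axis from 0) of each of the 9 genes in the 3 libraries labelled shDNM1 (left) and the 3 shControl libraries (right); symbols mark the replicate number, and the bar with whiskers is the mean and SD. PHGDH, SHMT1, MTHFD1 and PSPH do not overlap between the sets, and the other 5 genes do.

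The first step of serine synthesis differed most. PHGDH (ENSG00000092621, GRCh38 chromosome 1, 119648411 to 119744218, plus strand), the first and committed enzyme, had 49.0, 74.6 and 67.9 CPM in the libraries labelled shDNM1, against 130.5, 152 and 124 CPM in the shControl libraries. The sets did not overlap, and the highest shDNM1 value was well under the lowest shControl value. PHGDH stood at 47.1% of the shControl level (95% interval 39.9% to 55.5%; log2 fold change -1.09, SE 0.11, adjusted p = 8.92e-07). Its spread was also the widest of the members in the libraries labelled shDNM1, with a coefficient of variation of 20.8%, against 10.7% in shControl. Replicate 1 was the low one, and leaving it out gave a log2 fold change of -0.93 (adjusted p = 7.41e-10).

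The later steps of the same branch did not pass the test. PSAT1 (ENSG00000135069, chromosome 9, 78297125 to 78330093, plus strand), the aminotransferase, had 418, 501 and 491 CPM in the libraries labelled shDNM1, against 426, 459 and 417 CPM in shControl. The sets overlapped, since shDNM1 replicate 1 lay among the shControl values while replicates 2 and 3 lay above them. The difference did not pass (log2 fold change 0.11, SE 0.071, adjusted p = 0.237), but without shDNM1 replicate 1 it passed as higher (log2 fold change 0.19, adjusted p = 0.00714).

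PSPH (ENSG00000146733, chromosome 7, 56011051 to 56051604, minus strand), the phosphatase that releases serine, had 145, 149.5 and 139 CPM in the libraries labelled shDNM1, against 153, 159 and 151 CPM in shControl. All shDNM1 values lay below all shControl values, by a small margin. The difference did not pass (log2 fold change -0.10, SE 0.062, adjusted p = 0.247). With limma on the deposited TPM it passed as lower, at a log2 fold change of -0.16 on the log2(TPM + 1) scale (adjusted p = 0.0277). On the log2(TPM + 0.1) scale limma gave an adjusted p of 0.0294. The median log2 fold change over all tested genes was also lower on these scales, at -0.067 and -0.075. It was -0.013 in the edgeR fit to the counts. The part of this general shift in the PSPH call was not tested. Within a library, the ratio of PSAT1 to PHGDH in TPM, looked at after the values were seen and not tested, was 12.3, 9.68 and 10.4 in the libraries labelled shDNM1 and 4.71, 4.35 and 4.84 in shControl.

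The cytosolic hydroxymethyltransferase gene was lower and its mitochondrial paralog did not pass the test. SHMT1 (ENSG00000176974, chromosome 17, 18327860 to 18363563, minus strand), which moves a carbon unit between serine and folate in the cytosol, had 25.2, 28.5 and 27.1 CPM in the libraries labelled shDNM1, against 49.1, 51.3 and 46.6 CPM in shControl. The sets were far apart and each was tight. SHMT1 fell to 55.0% of the shControl level (95% interval 48.6% to 62.1%; log2 fold change -0.86, SE 0.084, adjusted p = 4.20e-07).

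SHMT2 (ENSG00000182199, chromosome 12, 57229573 to 57234935, plus strand), the main mitochondrial source of one-carbon units from serine, had 511, 634 and 593 CPM in the libraries labelled shDNM1, against 571, 621 and 559 CPM in shControl. The shDNM1 values enclosed the shControl values on both sides. The log2 fold change was -0.01 (SE 0.074, 95% interval -0.17 to 0.14, adjusted p = 0.927), and its sign changed with the scaling, at 0.00299 under RLE scaling.

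MTHFD1 (ENSG00000100714, chromosome 14, 64388031 to 64463457, plus strand), the trifunctional cytosolic folate enzyme, had 117, 139 and 133 CPM in the libraries labelled shDNM1, against 182, 183 and 170.0 CPM in shControl. The sets did not overlap. MTHFD1 fell to 72.7% of the shControl level (95% interval 65.5% to 80.6%; log2 fold change -0.46, SE 0.071, adjusted p = 6.95e-05).

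None of the 4 mitochondrial genes passed the test. MTHFD2 (ENSG00000065911, chromosome 2, 74186172 to 74217565, plus strand), a mitochondrial dehydrogenase and cyclohydrolase that is often high in tumours, had 203, 256 and 228 CPM in the libraries labelled shDNM1, against 233, 239.5 and 229 CPM in shControl. The shControl values lay within the range of the shDNM1 values. The log2 fold change was -0.03 (SE 0.074, adjusted p = 0.808), with a 95% interval of -0.18 to 0.13, and it was 0.0547 without shDNM1 replicate 1 (adjusted p = 0.517).

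MTHFD1L (ENSG00000120254, chromosome 6, 150865679 to 151101887, plus strand), the mitochondrial synthetase that releases formate, had 157, 191 and 183 CPM in the libraries labelled shDNM1, against 157.5, 174 and 166 CPM in shControl. Replicate 1 of shDNM1 lay just under the lowest shControl value and the other shDNM1 libraries lay above the highest. The difference did not pass (log2 fold change 0.09, SE 0.074, adjusted p = 0.374), but passed as higher without shDNM1 replicate 1 (log2 fold change 0.17, adjusted p = 0.0253).

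ALDH1L2 (ENSG00000136010, chromosome 12, 105019784 to 105107643, minus strand), the mitochondrial 10-formyltetrahydrofolate dehydrogenase, had 9.94, 11.9 and 12.9 CPM in the libraries labelled shDNM1, against 11.0, 13.4 and 12.95 CPM in shControl. The sets overlapped (log2 fold change -0.10, SE 0.14, adjusted p = 0.620). As the member with the fewest reads, 128 to 182 per library, it had the widest 95% interval of the 9, from -0.40 to 0.19.

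**Figure D2:**
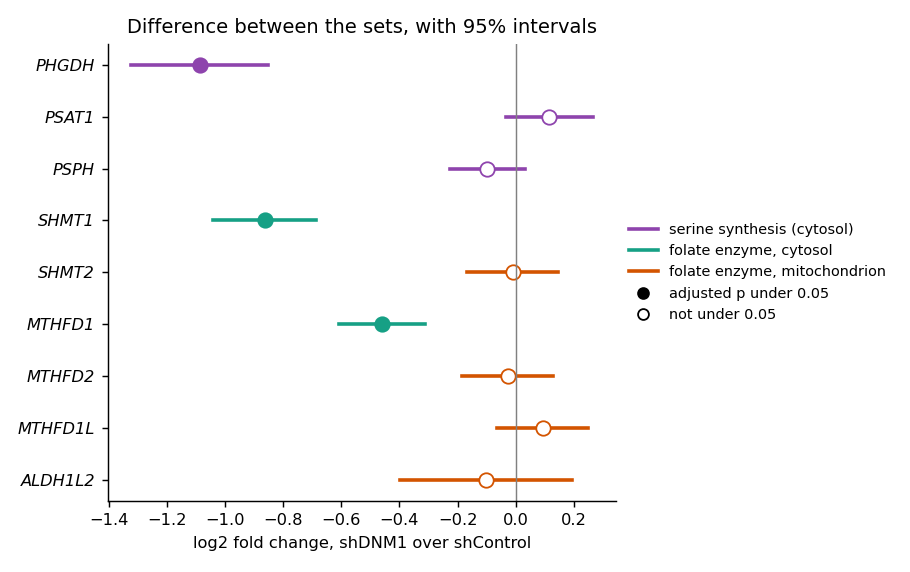
Log2 fold change of each gene, libraries labelled shDNM1 over shControl (horizontal axis), with its 95% interval; filled circles passed an adjusted p of 0.05, and colours give the place of the enzyme. PHGDH, SHMT1 and MTHFD1 lie at -1.09, -0.86 and -0.46, and the intervals of the other 6 genes include 0.

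For 2 pairs of enzymes, the ratio of the mitochondrial member to its cytosolic counterpart was taken within each library in TPM (per-length values that allow genes to be compared). A difference between compartments over all members was not tested, and the cytosolic members PSAT1 and PSPH did not pass. SHMT2 to SHMT1 was 16.4, 17.9 and 17.7 in the libraries labelled shDNM1, against 9.40, 9.77 and 9.69 in shControl, 1.80-fold higher. MTHFD1L to MTHFD1 was 2.63, 2.69 and 2.70 in the libraries labelled shDNM1, against 1.70, 1.87 and 1.92 in shControl, 1.47-fold higher. Neither ratio overlapped between the sets, and an exact permutation test, two-sided, gave p = 0.1 for each (n = 3 libraries a set), the smallest that 3 against 3 can give, so the test could not pass 0.05. A ratio alone shows unequal change of its 2 genes and not which of them changed. In the tests of single genes, SHMT1 (log2 fold change -0.86) and MTHFD1 (-0.46) were called lower. SHMT2 (-0.01) and MTHFD1L (0.09) did not pass.

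**Figure D3:**
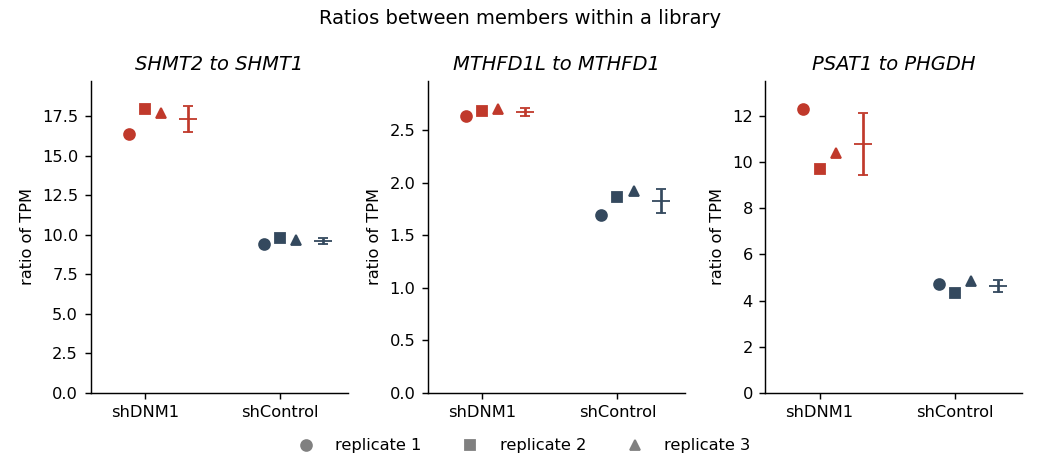
Ratio of TPM (vertical axis from 0) of SHMT2 to SHMT1, MTHFD1L to MTHFD1 and PSAT1 to PHGDH in each library labelled shDNM1 (left) and shControl (right), with mean and SD. Every shDNM1 ratio lies above every shControl ratio, for example 16.4 to 17.9 against 9.40 to 9.77 for SHMT2 to SHMT1.

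On the TPM scale the members spanned a wide range of levels. PSAT1 was the most abundant at 623 ± 48.4 TPM in the libraries labelled shDNM1 and 599 ± 25.0 TPM in shControl, and SHMT2 came next at 496 ± 41.3 TPM in the libraries labelled shDNM1 and 521 ± 24.3 TPM in shControl (SD, n = 3 a set). ALDH1L2 was the lowest, at 4.13 ± 0.52 TPM in the libraries labelled shDNM1 and 4.62 ± 0.43 TPM in shControl. Below PSAT1 and SHMT2, the order in the libraries labelled shDNM1 was PSPH, MTHFD1L, MTHFD2, PHGDH, MTHFD1, SHMT1 and ALDH1L2, and only PHGDH and MTHFD1 overlapped with their neighbour in that order. In shControl PHGDH stood above MTHFD2 and next to MTHFD1L, and only MTHFD1L and PHGDH overlapped among neighbours. PHGDH averaged 58.6 ± 10.8 TPM in the libraries labelled shDNM1 and 130 ± 12.7 TPM in shControl (SD, n = 3 a set), which is the change of place in the order.

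**Figure D4:**
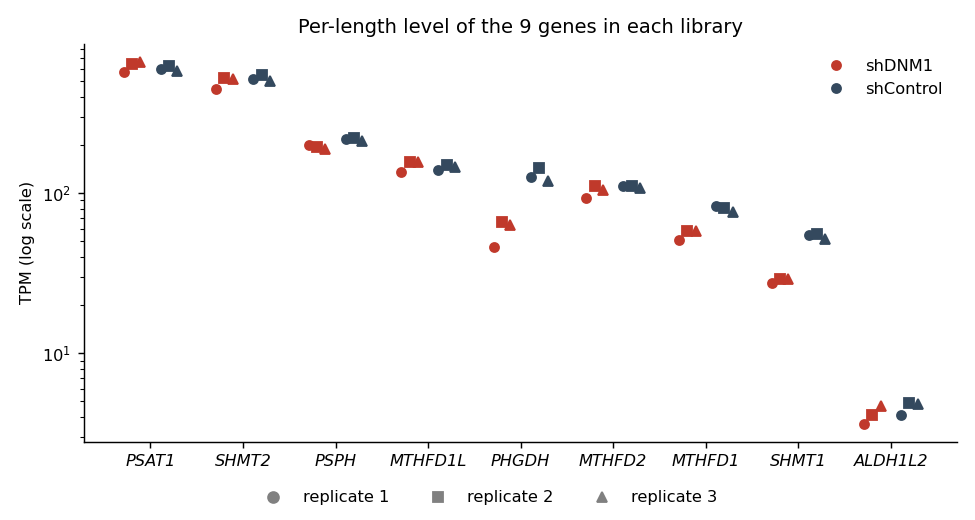
TPM of each gene (vertical log axis) in each library labelled shDNM1 (left of each pair) and shControl (right), with genes in order of their shControl mean and symbols for the replicate number. For PHGDH, MTHFD1, SHMT1 and, by a smaller margin, PSPH, all shDNM1 points lie under all shControl points.

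Within a set the members also varied together. In shDNM1 replicate 1, 8 of the 9 genes had their lowest CPM of the 3 shDNM1 libraries, where 38.3% of all tested genes did, and PSPH was the exception. In shControl replicate 2, 9 of 9 had their highest CPM of the 3 shControl libraries, where 35.1% of all tested genes did. On the TPM scale these counts were 8 of 9 against 30.0% and 8 of 9 against 28.4%. The pattern was noticed after the values were seen and is given as a description. PHGDH, SHMT1 and MTHFD1 kept their calls when any 1 library was left out.

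Reads from overlapping genes could have been counted with some members, because use of strand is not given in the sources used here. SHMT1 overlaps SMCR8 by 197 bases on the opposite strand, and MTHFD1 overlaps ZBTB25 by 14352 bases on the opposite strand. SMCR8 had 921 to 1043 counts in the libraries labelled shDNM1 and 881 to 914 in shControl, and ZBTB25 had 489 to 571 in the libraries labelled shDNM1 and 556 to 588 in shControl. ALDH1L2 overlaps NOPCHAP1 by 54414 bases on the opposite strand, a gene with more reads (576 to 676 counts in the libraries labelled shDNM1 and 633 to 735 in shControl), so its level is uncertain. It also overlaps WASHC4 by 320 bases on the opposite strand, which had 978 to 1582 counts in the libraries labelled shDNM1 and 998 to 1183 in shControl. SHMT2 overlaps NDUFA4L2 by 33 bases on the opposite strand, which had 128 to 142 counts in the libraries labelled shDNM1 and 167 to 207 in shControl. The table also holds 14 pseudogenes named after PSAT1, PSPH, SHMT1, MTHFD1 and MTHFD2, none above 6 counts in a library, and reads shared with them could have been lost or moved by the counting.

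Neighbouring steps of folate metabolism moved in both directions. Of 15 listed folate enzymes and transporters 12 were tested, and 2 rose, 3 fell and 7 did not pass (median log2 fold change -0.10). For this list and those below, the shares over all tested genes were 15.6% called higher and 16.2% lower. GGH, the lysosomal hydrolase that trims folate polyglutamates, rose to 398 ± 40.7 CPM in the libraries labelled shDNM1, against 184 ± 3.52 CPM in shControl (mean ± SD, n = 3 a set; 2.17-fold, adjusted p = 2.71e-09). TYMS, the thymidylate synthase that uses a folate-borne carbon, fell to 66.0% of shControl (adjusted p = 0.000949), and the folate receptor gene FOLR1 fell to 58.8% (adjusted p = 2.93e-05). ALDH1L1, MTHFS and SLC25A32 were removed by the low-count filter.

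In the methionine cycle and transsulfuration list, 9 of 13 genes were tested, and 2 rose, 2 fell and 5 did not pass (median log2 fold change -0.05). MTR, the methionine synthase that takes its methyl group from folate, fell to 75.2 ± 3.33 CPM in the libraries labelled shDNM1, against 109 ± 1.66 CPM in shControl (adjusted p = 6.87e-06). AHCYL2, a relative of adenosylhomocysteinase, fell to 67.6% of shControl (adjusted p = 0.000436). MTRR, the reductase that keeps MTR active, was 1.15-fold higher (adjusted p = 0.0263), a call lost without shDNM1 replicate 1 or shControl replicate 1, 2 or 3 (adjusted p = 0.0533, 0.0512, 0.142 and 0.0657), with library size scaling (0.0683) and with TPM. MAT2B, a regulatory subunit of methionine adenosyltransferase, was 1.16-fold higher (adjusted p = 0.0324), a call lost without shDNM1 replicate 2 or 3 or shControl replicate 1 or 3 (adjusted p = 0.0746, 0.0991, 0.132 and 0.114), with library size scaling (0.0603), with no low-count filter (0.0715) and with TPM. BHMT, BHMT2, GNMT and MAT1A were removed by the filter.

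Of 6 genes of de novo purine synthesis, which uses formyl groups from folate, 2 rose, 1 fell and 3 did not pass (median log2 fold change 0.16). GART was 1.18-fold (adjusted p = 0.00535) and PFAS 1.17-fold (adjusted p = 0.0131) higher, and PAICS fell to 85.3% of shControl (adjusted p = 0.00482). Without shControl replicate 3 neither GART nor PFAS passed (adjusted p = 0.0540 and 0.0782), and PFAS also failed without shDNM1 replicate 2 (adjusted p = 0.0540). ATIC, which adds the last formyl group, had a log2 fold change of 0.17 (adjusted p = 0.0710) and passed without shDNM1 replicate 1 (adjusted p = 0.00852), with the replicate block (0.0230) and with a filter at 1 CPM (0.0486).

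In the list of glycine cleavage and mitochondrial serine entry, 4 of 6 genes were tested and 0 passed (median log2 fold change -0.04), with log2 fold changes from -0.37 to 0.15. SFXN3, a mitochondrial carrier of the sideroflexin family, had -0.19 (adjusted p = 0.0613) and passed in 7 of 18 alternatives, with an adjusted p of 0.0199 to 0.0499. These were the replicate block, upper quartile and library size scaling, no low-count filter, the robust fit, and leaving out shDNM1 replicate 1 or 3 (adjusted p = 0.0254 and 0.0358). GCSH, the hydrogen carrier of glycine cleavage, had -0.37 (adjusted p = 0.222) and passed without shDNM1 replicate 3 (adjusted p = 0.0419). DLD, the lipoamide dehydrogenase, had 0.15 (adjusted p = 0.124) and SFXN1, a mitochondrial serine transporter, 0.10 (adjusted p = 0.321). GLDC and AMT were removed by the filter.

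Of 10 genes of serine import and other serine use, 8 were tested, 1 rose, 1 fell and 6 did not pass (median log2 fold change -0.05). The neutral amino acid transporter gene SLC1A4, which carries serine, fell to 12.0 ± 1.56 CPM in the libraries labelled shDNM1, against 20.8 ± 2.02 CPM in shControl (adjusted p = 0.000108). SLC1A5, its more abundant relative, was 1.17-fold higher (adjusted p = 0.0149), a call lost without shDNM1 replicate 2 or 3 or shControl replicate 1 or 3 (adjusted p = 0.0516, 0.0611, 0.0566 and 0.0784) and with TPM. SDSL and SLC38A1 had log2 fold changes of -0.62 (SE 0.29) and -0.07 (SE 0.060). SDS and SPTLC3 were removed by the filter.

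Transcription factors known to act on the pathway differed among themselves. MYC rose to 613 ± 64.1 CPM in the libraries labelled shDNM1, against 414 ± 12.5 CPM in shControl (adjusted p = 7.92e-06). ATF4 had 497 ± 38.7 CPM in the libraries labelled shDNM1 and 510 ± 18.7 CPM in shControl, and NFE2L2 had 58.8 ± 4.03 CPM in the libraries labelled shDNM1 and 62.9 ± 1.47 CPM in shControl (SD, n = 3 a set). Neither passed (adjusted p = 0.708 and 0.347), and the list of 3 had a median log2 fold change of -0.04.

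ATF4 is a known activator of PHGDH, PSAT1, PSPH, SHMT2 and MTHFD2, and other ATF4 targets were listed beside them. Of 10 such genes 7 rose, 1 fell and 2 did not pass (median log2 fold change 0.37), where 15.6% of all tested genes were called higher and 16.2% lower. No difference between these genes and the members just named was tested. SLC7A11, the cystine transporter subunit, was 1.44-fold higher (adjusted p = 9.21e-06), the pseudokinase gene TRIB3 1.31-fold (adjusted p = 0.000487), the stress factor gene DDIT3 1.60-fold (adjusted p = 0.00130) and the glutathione-degrading enzyme gene CHAC1 1.31-fold (adjusted p = 0.00153). ASNS, SESN2 and CEBPB were the others that rose, at 1.23-fold to 1.47-fold. The SESN2 call was lost without shDNM1 replicate 2 or shControl replicate 3 (adjusted p = 0.0985 and 0.134) and with TPM. SLC3A2, the partner chain of several amino acid transporters, was the gene that fell, to 81.8% of shControl (adjusted p = 0.00257). These 4 were named after their values were seen.

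**Figure D5:**
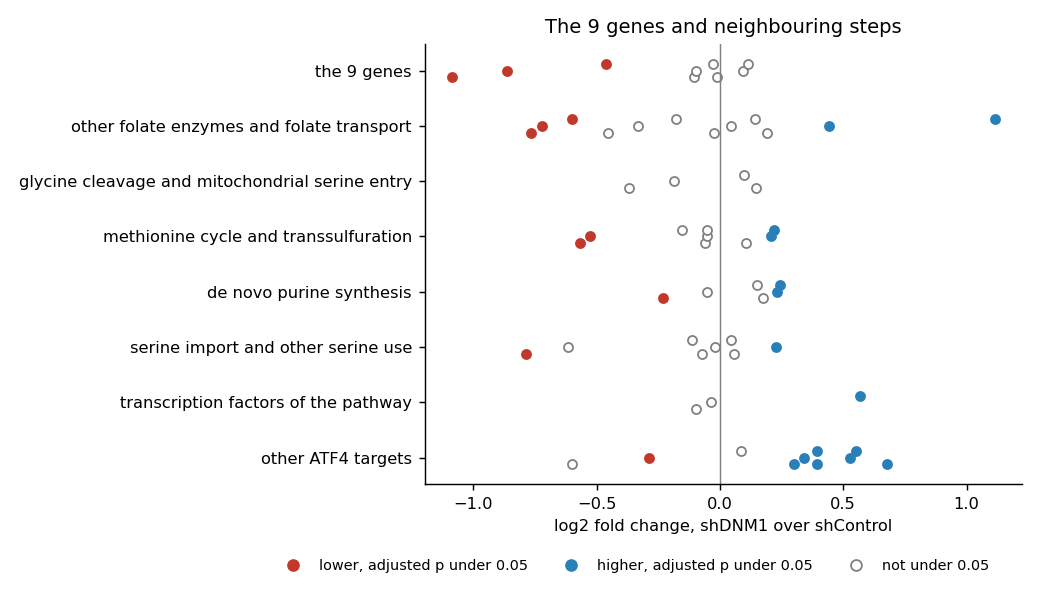
Log2 fold change, libraries labelled shDNM1 over shControl (horizontal axis), of the 9 genes and of the tested genes of 7 neighbouring lists (rows); each circle is a gene, red and blue circles passed an adjusted p of 0.05 as lower or higher, and open circles did not. Of the 52 tested list genes 15 rose and 8 fell, with GGH at 1.12 and SLC1A4 at -0.79 as the extremes. Over all tested genes, 15.6% were called higher and 16.2% lower.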

How the data were processed

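The deposited count table holds raw read counts per gene, as deposited by the authors, and the submitters' processing notes name GRCh38. The aligner, the counter, the annotation release and any use of strand were not given in the sources used here. Per the labels' protocols, extraction used a Qiagen RNeasy kit, and a SMARTER kit for mRNA-seq served for library preparation. The authors' second table holds TPM and was used as such: its columns sum to 1000000 over unique names, and to 1734410 to 2048542 as deposited because repeated names are listed more than once. For that reason the deposited columns were recorded as a score. In each table, 2328 of 62710 lines shared 453 names with identical values and were collapsed, leaving 60835. All per-sample columns were used, so 0 were left out.

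Tests on the counts used edgeR 4.0.16 under R 4.3.3 (filterByExpr, TMM, glmQLFit, glmQLFTest, two-sided), with Benjamini-Hochberg adjustment over 16744 genes and a threshold of 0.05. Library totals were 12844534 to 13537519 counts. No library pair agreed within sampling noise (chi-square per gene at least 2.39).

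All 9 members and DNM1 are named, and in each list up to 4 genes with the smallest p. Some genes of the folate list are counted but not reported here by name. The members and lists were chosen with earlier results of these data known. Alternatives used RLE, upper quartile and library size scaling, other filters, DESeq2 1.42.0, limma 3.58.1 (voom, and trend on log2 TPM), a robust fit, a threshold of 0.01, the replicate number as a block and each library left out. Figures used matplotlib 3.10.9.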

Additional observations from a re-analysis of the deposited data

How the results depend on the processing

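PHGDH, SHMT1 and MTHFD1 stayed lower and past the threshold under each of the 18 alternatives run, with log2 fold changes of -1.21 to -0.93, -0.92 to -0.81 and -0.52 to -0.39. Members called lower numbered 3 to 4. Leaving out each library in turn, members called higher numbered 0 to 2 (2 without shDNM1 replicate 1), and the log2 fold change ran from 0.0665 to 0.19 for PSAT1, 0.0326 to 0.17 for MTHFD1L, -0.0808 to 0.0735 for SHMT2, -0.12 to 0.0547 for MTHFD2, -0.085 to 0.0255 for ATF4 and -0.20 to -0.0373 for DNM1. The SHMT2 sign turned positive under RLE (0.00299), the CPM filter (0.00011), DESeq2 (0.003), and without shDNM1 replicate 1 (0.0735) or shControl replicate 2 (0.032). The signs of MTHFD2 (0.0547) and ATF4 (0.0255) turned without shDNM1 replicate 1. PSPH passed as lower on log2(TPM + 1) (-0.16) and log2(TPM + 0.1) (-0.16). MTRR, MAT2B, SLC1A5 and SESN2 lost their higher calls on both TPM scales. The median log2 fold change over all tested genes was -0.067 and -0.075 there, against -0.013 in the edgeR fit to the counts. At a threshold of 0.01, 1739 genes were called higher and 1764 lower. Genes of the 7 lists called higher numbered 9 to 15 with a library left out, the lowest without shControl replicate 3. Across the 18 alternatives the methionine list had 0 to 2 genes higher and the glycine list 0 to 2 lower. The cause of these changes was not tested.

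With the replicate number as a block, 2964 genes were called higher and 3116 lower, with 3 members lower and 0 higher. The numbers were not taken to pair the libraries, though 3 libraries a set cannot settle this. Same-numbered deviations from the set means correlated at 0.102, 0.063 and -0.033. Replicates 1 and 2 of each set correlated best with their own number, and replicate 3 did not. The 2 planned ratios kept their direction under each of 7 alternatives, in a design too small to pass 0.05. Leaving out a library could not change that direction, because every shDNM1 ratio lay above every shControl ratio.

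The limits are 3 libraries a set, a batch that coincides with the vector, a target mRNA that was not clearly lower, and few reads for ALDH1L2. mRNA levels do not measure enzyme activity or serine flux.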
